A study of Mus musculus with 4 samples.

Results

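The 6 Iroquois genes of the mouse lie in a pair of clusters, Irx3, Irx5 and Irx6 on chromosome 8 and Irx1, Irx2 and Irx4 on chromosome 13. Pitx1 ChIP-seq peaks were followed across both. Members were all peaks whose midpoint fell in a window of 1.6 Mb on chromosome 8 (chr8:93800000-95400000, build mm9, which also takes in Fto) or in a window of 2.2 Mb on chromosome 13 (chr13:71700000-73900000). The windows were set by the genes and not by the peaks, though with earlier results of these data known. They held 36 of 14753 peaks in replicate 1 and 68 of 25027 peaks in replicate 2. A region was called replicated where peaks of the libraries overlapped by at least 1 bp, and its extent is the union of those peaks. Of 10274 such regions, 25 were members: 19 in the Irx3/Irx5/Irx6 window and 6 in the Irx1/Irx2/Irx4 window.

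ICR mouse embryos of wild-type genotype gave the hindlimb buds at stage E11.5 (midgestation), and 2 libraries of their chromatin were made after immunoprecipitation with an antibody to Pitx1. Another 2 libraries, of input chromatin without antibody, carry no peak list. There is no second tissue or genotype in the series, so comparisons are between stretches of the genome within the same libraries. The labels name replicates 1 and 2 without saying whether they came from separate litters. No precipitation by an unrelated antibody was analysed, so a peak stands for enrichment with the Pitx1 antibody and is not in itself proof of Pitx1 binding.

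Iroquois proteins are homeodomain transcription factors of the TALE class. Irx3 and Irx5 are made in the early limb bud, and mouse embryos that lack both have hindlimb skeletal defects. Fto, the neighbour of Irx3, encodes an RNA demethylase, and its introns are known to hold enhancers that act on Irx3 over a long distance. Irx6 is best known from the retina, Irx4 from the ventricles of the heart, and Irx1 and Irx2 from lung, kidney and later digit condensations. Pitx1 is the homeodomain factor that sets hindlimb identity. In the RefSeq annotation the coding genes run in the order Rpgrip1l, Fto, Irx3, Irx5, Irx6, Mmp2 on chromosome 8, and Adamts16, Irx1, Irx2, Irx4, Ndufs6 on chromosome 13. That annotation is of another build (GRCm38), so the peaks are given by mm9 position and the place of each gene start within a window was not determined.

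Pitx1 peaks were denser in the window of Irx3, Irx5 and Irx6 than in that of Irx1, Irx2 and Irx4, and denser than over the autosomes. The Irx3/Irx5/Irx6 window had 11.9 replicated regions per Mb (95% exact Poisson interval 7.15 to 18.5). The Irx1/Irx2/Irx4 window had 2.73 per Mb (1.00 to 5.94), and the autosomes outside both windows 4.11 per Mb (4.03 to 4.19). The chromosome 8 window was thus at 2.89 times the autosomal rate, with an exact interval of 1.74 to 4.52 that lies above 1. For the chromosome 13 window the ratio to the autosomes was 0.664 (0.244 to 1.45), an interval that includes 1. The Irx3/Irx5/Irx6 rate was 4.35 times that of the Irx1/Irx2/Irx4 window (1.67 to 13.3). Against the rest of its own chromosome, the chromosome 8 window was at 2.78 times the rate (1.66 to 4.39) and the chromosome 13 window at 0.571 times (0.209 to 1.25). These intervals cover counting error only, and they are too narrow where peaks cluster.

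Each library alone placed the Irx3/Irx5/Irx6 window above both comparisons. Replicate 1 had 25 peaks there, or 15.6 per Mb, against 11 peaks or 5.00 per Mb in the Irx1/Irx2/Irx4 window and 5.89 per Mb on the autosomes. In replicate 2 the chromosome 8 window held 46 peaks, or 28.8 per Mb, and the chromosome 13 window 22 peaks in 2.2 Mb, against 10.01 per Mb on the autosomes. The ratio of the chromosome 8 window to the autosomes was 2.65 in replicate 1 (1.71 to 3.91) and 2.87 in replicate 2 (2.10 to 3.83). Between the windows the ratio was 3.13 in replicate 1 (1.48 to 7.04) and 2.88 in replicate 2 (1.69 to 5.02). Both were smaller than for replicated regions, at 4.35 (1.67 to 13.3), but the intervals overlap. The Irx1/Irx2/Irx4 window was at 0.848 times the autosomal rate in replicate 1 (0.423 to 1.52) and 0.999 times in replicate 2 (0.626 to 1.51). By all peaks of replicate 2, then, its density was close to that of the autosomes. The lower value of 0.664 was that of the regions found in both libraries. Its interval (0.244 to 1.45) overlaps those of the single libraries.

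**Figure D1:**
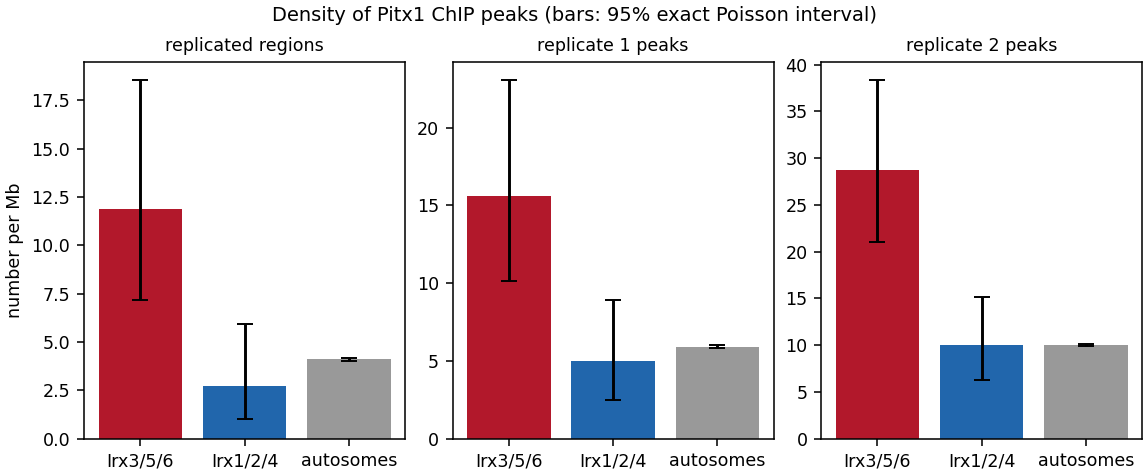
Density of Pitx1 ChIP peaks in number per Mb (vertical axis, a separate scale in each panel) for replicated regions, replicate 1 peaks and replicate 2 peaks, in the Irx3/Irx5/Irx6 window, the Irx1/Irx2/Irx4 window and the autosomes outside both; error bars are 95% exact Poisson intervals. The chromosome 8 window is the tallest bar in every panel, at 11.9, 15.6 and 28.8 per Mb.

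Peaks are unevenly spread along the genome, so each window was also set beside every autosomal window of its own length, stepped by 100 kb and including the window itself. At least 19 replicated regions were found in 4.43% of 24383 windows of 1.6 Mb, where the median was 5 and the highest count 49. By single libraries, 4.46% of windows reached the 25 peaks of replicate 1 and 2.21% the 46 peaks of replicate 2. The Irx3/Irx5/Irx6 window was therefore in the upper part of the distribution but not at its end. The 6 regions of the Irx1/Irx2/Irx4 window were close to the middle, with 41.9% of 24269 windows of 2.2 Mb holding no more and 64.5% holding at least as many (median 8). By single libraries it was in the middle too. At least its 11 replicate 1 peaks were found in 55.3% of windows and at least its 22 replicate 2 peaks in 46.7%, while 49.3% and 56.1% held no more.

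**Figure D2:**
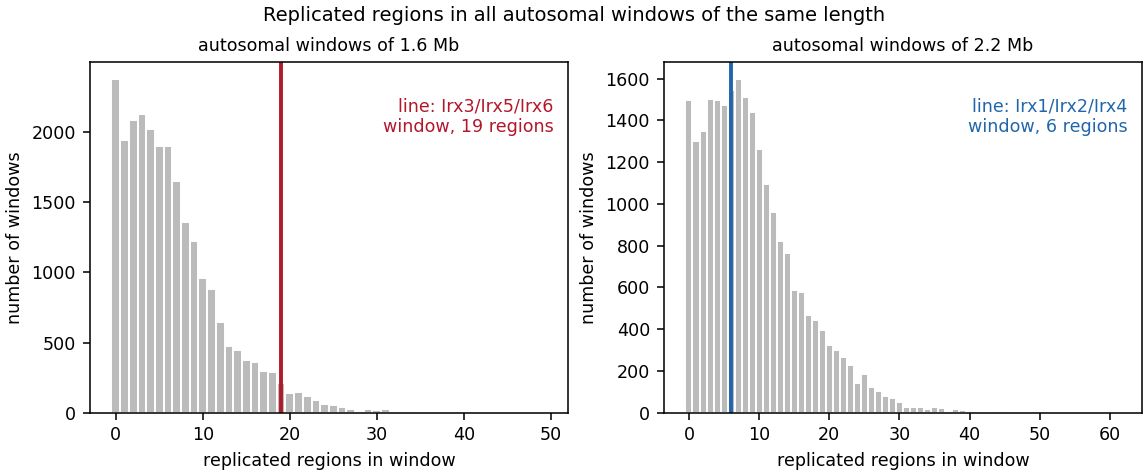
Number of autosomal windows (vertical axis) by the number of replicated Pitx1 regions they hold (horizontal axis), for windows of 1.6 Mb, left, and 2.2 Mb, right, stepped by 100 kb. Coloured lines mark the Irx3/Irx5/Irx6 window with 19 regions, which 4.43% of windows reach, and the Irx1/Irx2/Irx4 window with 6, which 64.5% reach.

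The strength of the peaks was compared by their scores, as a description with no test between the windows. The peak score is the authors' deposited value from the peak caller, and it was used to rank peaks within a list. The percentile of a peak is the share of its own list with a score at or below its own. Peaks of the Irx3/Irx5/Irx6 window had a median percentile of 72.7 in replicate 1 (25 peaks) and 68.5 in replicate 2 (46 peaks). Those of the Irx1/Irx2/Irx4 window were at 47.0 (11 peaks) and 51.1 (22 peaks), near the autosomal medians of 50.2 and 50.1. In the best-scoring 25% of replicate 1 lay 12 of the 25 chromosome 8 peaks (48.0%, 95% Wilson interval 30.0 to 66.5%), 0 of the 11 chromosome 13 peaks, which allows a share of up to 27.3% by a limit of 3 counts and 25.9% by the Wilson interval, and 25.1% of autosomal peaks. In replicate 2 the shares were 17 of 46 (37.0%, 24.5 to 51.4%), 4 of 22 (18.2%, 7.31 to 38.5%) and 25.02% on the autosomes. The replicate 1 interval of the chromosome 8 window lies above the autosomal share, and the replicate 2 interval includes it. In replicate 2 the intervals of the windows overlap.

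Among replicated peaks alone, the median percentile of the Irx3/Irx5/Irx6 members was 85.9 in replicate 1 and 85.5 in replicate 2. Replicated autosomal peaks had medians of 61.9 and 73.7. The Irx1/Irx2/Irx4 members were at 47.7 in replicate 1 and 75.1 in replicate 2. In replicate 2 the same share of replicated peaks was in the best 25% in both windows (12 of 21 and 4 of 7, 57.1%), against 48.1% on the autosomes. In the Irx1/Irx2/Irx4 window 4 of the 6 regions stood at a higher percentile in replicate 2 than in replicate 1. In the Irx3/Irx5/Irx6 window 13 of 19 did. The share of autosomal regions that did so was not counted, and the autosomal median was also higher in replicate 2.

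By the sum of their ranks in the lists, 5 of the 19 Irx3/Irx5/Irx6 regions belonged to the best 10% of all replicated regions, and 2 to the best 1%. At least 5 such regions were found in 1.2% of autosomal windows of 1.6 Mb. Of the 1079 windows with at least 19 regions of any strength, 22.9% had 5 or more. No region of the Irx1/Irx2/Irx4 window was in the best 10%, as in 49.9% of windows of 2.2 Mb.

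**Figure D3:**
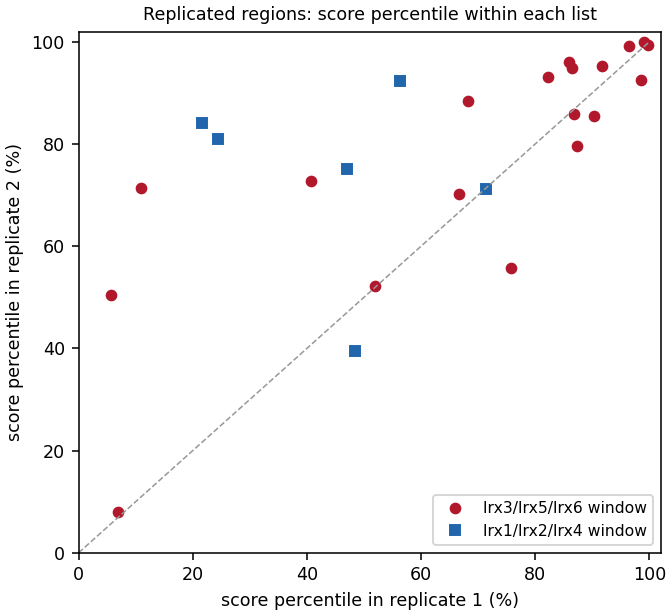
Score percentile of each replicated region in replicate 1 (horizontal axis, %) and replicate 2 (vertical axis, %), by its best peak in each list; circles are the 19 regions of the Irx3/Irx5/Irx6 window, squares the 6 of the Irx1/Irx2/Irx4 window, and the dashed line marks equal percentiles. Most circles crowd into the upper right corner, while no square is above 71.3 in replicate 1.

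The strongest region of the Irx3/Irx5/Irx6 window was at chr8:94637294-94639427, 838 kb into the window. It scored 588 in replicate 1 (rank 131) and 1826 in replicate 2 (rank 13), and was at place 50 among all 10274 replicated regions. It was also the widest member, at 2134 bp, and had 0 other replicated regions within 100 kb. The second, chr8:94471844-94473268, was the best of the window in replicate 1, with scores of 807 (rank 49) and 1049 in replicate 2 (rank 143). Its peak midpoints in the libraries were 6.5 bp apart, and it had 5 other replicated regions within 100 kb, so the leading pair differed in surroundings.

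The third region, chr8:94203222-94204299, scored 355 in replicate 1 (rank 538) and 893 in replicate 2 (rank 220). The fourth, chr8:93969503-93970780, scored 483 (rank 229) and 333 (rank 1875), the only one of the 5 with the higher score in replicate 1. The fifth, chr8:94858135-94858950, scored 243 (rank 1219) and 435 (rank 1182). All 5 were thus above the 90th percentile of both lists, where the fifth stood at 91.7 and 95.3. They lay between 170.1 and 1059 kb into the window and did not form a single group.

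The remaining 14 regions of this window ran from places 1162 to 10225 in the order of all replicated regions. Their scores were between 52.5 and 221 in replicate 1 and between 53.6 and 470 in replicate 2. The weakest, chr8:93968601-93969476, scored 52.9 and 53.6, near the lowest scores of either list. It ended 26 bp before the fourth strongest region began.

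The Irx3/Irx5/Irx6 regions were most numerous between 400 and 800 kb into their window. By successive parts of 400 kb they numbered 4, 10, 4 and 1. Replicate 1 peaks numbered 7, 11, 4 and 3 in the same parts, and replicate 2 peaks 13, 19, 9 and 5. The densest 100 kb held 6 replicated regions, within chr8:94449687-94513215 (63.5 kb), which include the second strongest. In those 63.5 kb replicate 1 had 6 peaks and replicate 2 had 8. A stretch of 100 kb with at least 6 regions was present in 5.64% of autosomal windows of 1.6 Mb, and in 55.9% of those with at least 19 regions. The median distance between neighbouring midpoints was 33.7 kb in the chromosome 8 window, 100.02 kb in the chromosome 13 window and 88.7 kb on the autosomes.

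In the Irx3/Irx5/Irx6 window 10 of the 19 replicated regions (52.6%) had another with its midpoint under 10 kb away, against 22.9% of those on the autosomes; windows with as many regions were not compared for this. They made 5 pairs, at distances of 1.10 to 4.23 kb, and no run of 3 or more. The pairs began at 93968601, 94270877, 94449687, 94468062 and 94809128. In the first, 26 bp separated the regions, and in the last, 761 bp, so that a single broad stretch divided by the caller could count more than once. With regions under 5 kb apart counted once, 14 were left on chromosome 8 and all 6 on chromosome 13. The chromosome 8 window was then at 2.33 times the autosomal rate (1.27 to 3.91). The Irx1/Irx2/Irx4 window had no pair this close, its smallest distance being 12.3 kb.

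**Figure D4:**
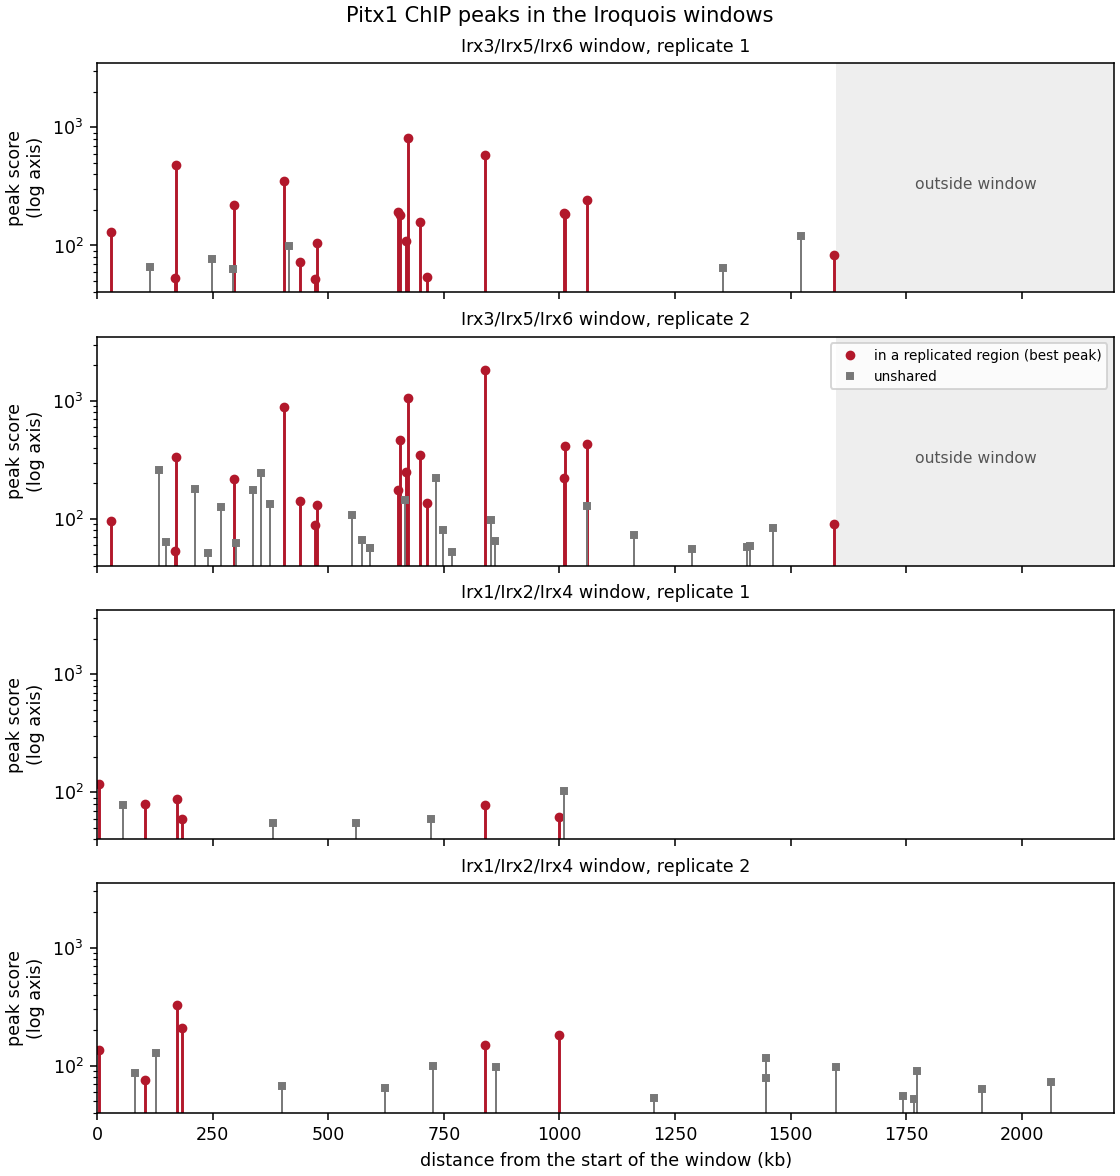
Pitx1 ChIP peaks along the Irx3/Irx5/Irx6 window (upper 2 panels) and the Irx1/Irx2/Irx4 window (lower 2 panels) in replicates 1 and 2; the horizontal axis is the distance from the window's start in kb and the vertical axis the peak score on a log scale. Circles are replicated regions by their best peak and squares are unshared peaks; the tallest circle is the chromosome 8 region at 838 kb, and no circle lies beyond 998 kb in the chromosome 13 window.

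In the Irx1/Irx2/Irx4 window the strongest region was chr13:71871539-71872509. It scored 88.6 in replicate 1 (rank 6452) and 326 in replicate 2 (rank 1936), and was at place 3303 of all replicated regions. The second was chr13:71702518-71703505, only 3.01 kb from the window's edge by its midpoint, with scores of 117 (rank 4237) and 135 (rank 7228). This was the best score of the window in replicate 1, and 12 of the 19 Irx3/Irx5/Irx6 regions scored higher in that library.

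The third region of the chromosome 13 window, chr13:72537782-72538808, scored 78.2 in replicate 1 (rank 7826) and 151 in replicate 2 (rank 6233). The fourth, chr13:71883844-71884810, scored 59.8 (rank 11572) and 207 (rank 3977), and joined 2 peaks of replicate 2. The fifth, chr13:72697938-72698645, scored 61.4 (rank 11155) and 184 (rank 4753). These 3 were at percentiles of 21.6 to 47.0 in replicate 1 and of 75.1 to 84.1 in replicate 2. The last, chr13:71802397-71803671, scored 79.9 (rank 7601) and 75.3 (rank 15155), the only one below the median of both lists.

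Of the 6 chromosome 13 regions, 4 lay in the first 400 kb of the window and the other 2 in the third part of 400 kb. With the window narrowed by 200 kb at both ends, 2 regions were left, and the ratio to the autosomes was 0.270 (0.0327 to 0.977), an interval below 1. Widened by 200 kb at both ends, the window held 9 regions at a ratio of 0.843 (0.385 to 1.6004). The placing of the edges therefore decides whether the interval of the Irx1/Irx2/Irx4 window lies below 1. The Irx3/Irx5/Irx6 window held 15 regions when narrowed and still 19 when widened, at 3.04 times (1.702 to 5.02) and 2.31 times (1.39 to 3.61) the autosomal rate.

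Both windows contained a long stretch with no replicated region toward higher coordinates. On chromosome 13 it ran from the fifth strongest region to the end of the window, chr13:72698646-73900000, a length of 1201 kb. In it replicate 1 had 1 peak and replicate 2 had 9, none of them shared, and the next replicated region lay 70.9 kb beyond the window. A stretch this long, measured between midpoints and window ends, was present in 26.5% of autosomal windows of 2.2 Mb. By the peaks of replicate 1 alone the longest empty stretch was 1190 kb, but by those of replicate 2 alone it was 241 kb. On chromosome 8 the stretch was chr8:94858951-95394060, or 535 kb, with 2 unshared peaks of replicate 1 and 6 of replicate 2. A stretch at least as long was present in 72.2% of windows of 1.6 Mb. Over the whole chromosome 8 window, the longest empty stretch was 294 kb by replicate 1 alone and 148 kb by replicate 2 alone.

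How often peaks recurred between the libraries could not be told from the autosomal share in either window at the main setting. The Irx1/Irx2/Irx4 share in replicate 2 was below it in some alternatives, given at the end of this paragraph. In replicate 1, 19 of 25 Irx3/Irx5/Irx6 peaks were replicated (76.0%, Wilson interval 56.6 to 88.5%), as were 6 of 11 Irx1/Irx2/Irx4 peaks (54.5%, 28.0 to 78.7%) and 69.9% of autosomal peaks. In replicate 2 the shares were 21 of 46 (45.7%, 32.2 to 59.8%), 7 of 22 (31.8%, 16.4 to 52.7%) and 42.6%. Each interval includes the autosomal share of its library, so a difference in recurrence was not detectable with these numbers of peaks. With the Irx1/Irx2/Irx4 window narrowed by 200 kb at both ends, 2 of 14 replicate 2 peaks were replicated (14.3%, 4.01 to 39.9%), which lies below the autosomal share. With only the top-scoring 50% of each list kept, 2 of 12 were replicated (16.7%, 4.70 to 44.80%). That interval lies just below the autosomal share of 44.90% at the same setting.

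Peaks found in 1 library only numbered 6 in replicate 1 and 25 in replicate 2 in the Irx3/Irx5/Irx6 window, and 5 and 15 in the Irx1/Irx2/Irx4 window. Their median percentiles in replicates 1 and 2 were 38.8 and 44.6 on chromosome 8 and 20.3 and 42.4 on chromosome 13, against 28.9 and 35.4 for unshared autosomal peaks. In replicate 2, 5 of the 25 unshared chromosome 8 peaks were in the best 25% of the list (20%, 8.86 to 39.1%), against 7.88% of unshared autosomal peaks. The strongest unshared peak of the Irx3/Irx5/Irx6 window was chr8:93934246-93934703 in replicate 2, with a score of 262 (percentile 89.0), 19.2 kb from the nearest replicate 1 peak. In replicate 1 it was chr8:95321208-95321953, with a score of 121 (percentile 72.7), 59.0 kb from the nearest replicate 2 peak. On chromosome 13 the strongest were chr13:71826306-71826808 in replicate 2 (score 129, percentile 69.0) and chr13:72709002-72709848 in replicate 1 (score 103, percentile 65.0). Of the unshared chromosome 8 peaks, 1 of 6 in replicate 1 and 3 of 25 in replicate 2 lay within 5 kb of a replicated region, and none of those on chromosome 13 did (0 of 5 and 0 of 15). The share of unshared autosomal peaks this close to a replicated region was not counted, and replicated regions were sparser in the chromosome 13 window.

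Peak widths differed between the libraries in the members as they did over the genome. In all 19 Irx3/Irx5/Irx6 regions and all 6 Irx1/Irx2/Irx4 regions the replicate 1 peak was the wider, as in 92.4% of replicated regions on the autosomes. Median widths of all replicated peaks were 876 bp in replicate 1 and 551 bp in replicate 2 on chromosome 8. They were 980 and 576 bp on chromosome 13, and 840 and 555 bp on the autosomes. Midpoints of the paired peaks were a median of 50.5 bp apart on chromosome 8 (6.5 to 321 bp) and 83.8 bp on chromosome 13 (26.5 to 199 bp). The authors also deposited a list of 1 bp positions without scores. Such a position was present in 18 of the 19 Irx3/Irx5/Irx6 regions and in all 6 Irx1/Irx2/Irx4 regions, against 99.7% of those on the autosomes. The one without a position was the strongest, at 838 kb into the chromosome 8 window and at place 50 in the series. Of the other 49 regions down to that place, 26 held a position.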

How the data were processed

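Per the submitters' processing notes, the build was mm9 and the tools included MACS 1.4.2, Bowtie 0.12.8, bedtools 2.16.2, CASAVA 1.8.2 and CASAVA 1.7. The role of each tool, the calling settings and any use of the input were not given in the sources used here. Each ChIP library has its own deposited peak list, with the authors' peak score and no header. Depth is unknown, since no read counts were used. Peaks were joined between the lists by overlap of at least 1 bp and counted by midpoint. The autosomal rate was taken over lengths from the start of each chromosome up to the last peak, outside both windows. Stretches where reads cannot be mapped were not taken out of these lengths or of the autosomal windows. Any such stretch lowers the autosomal rate and the counts of those windows. Ratios of rates have exact conditional 95% intervals, and shares have Wilson intervals; no p-value was computed. Counting was tested on simulated data. Regions named in full are the 5 with the lowest sum of ranks in each window, the strongest unshared peak of each library and window, and the longest empty stretches; the weakest region of each window, the densest 100 kb and the close pairs were chosen after their values were seen. The windows, members and tests were chosen with earlier results of these data known. Sequences were not printed, because no genome of build mm9 was used here; the planned motif search and distances to genes were not run for the same reason. Python 3.11.15, numpy 2.4.6, scipy 1.17.1, pandas 2.3.3 and matplotlib 3.10.9 were used.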

Additional observations from a re-analysis of the deposited data

How the results depend on the processing

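No paired analysis was possible because input replicates 1 and 2 come without a peak list. The Irx3/Irx5/Irx6 window stayed above the autosomes and above the Irx1/Irx2/Irx4 window, with intervals above 1, in all 10 alternatives. Between the windows, 2 lower limits were close to 1. The ratio was 3.21 (1.16 to 10.2) with regions under 5 kb apart counted once. With the windows widened by 200 kb it was 2.74 (1.18 to 6.89). These intervals cover counting error only. With each library left out in turn, the Irx3/Irx5/Irx6 window was at 2.65 to 2.87 times the autosomal rate. The ratio of the Irx1/Irx2/Irx4 window to the autosomes was then 0.848 to 0.999, and that between the windows 2.88 to 3.13. Keeping only the top-scoring 50% of either list, these ratios were 4.27, 0.414 and 10.3. In the best 25% the first was 6.08 and the second 0, since the Irx1/Irx2/Irx4 window had 0 regions; the third was 5.04 with 3 counts put in place of that 0, and its exact lower limit was 3.45. Moving the edges by 200 kb inward gave 3.04, 0.270 and 11.3, where the second interval no longer included 1, and outward 2.31, 0.843 and 2.74. Shares of replicated peaks in the best 25% were 91.7% (64.6 to 98.5%) in replicate 1 and 64.7% (41.3 to 82.7%) in replicate 2 in the Irx3/Irx5/Irx6 window, and 0% (0 of 4, up to 49.0%) in replicate 2 in the Irx1/Irx2/Irx4 window. The autosomal shares at that setting, 76.6% and 45.7%, are within these intervals. In the Irx1/Irx2/Irx4 window, replicate 1 had no peak in its best 25%, and narrowing gave 14.3% in replicate 2 (4.01 to 39.9%), below the autosomal 42.6%. The top-scoring 50% gave 16.7% in replicate 2 of that window (4.70 to 44.80%), just below the autosomal 44.90%. Median percentiles with replicated peaks only were 85.9 and 85.5 on chromosome 8, and 47.7 and 75.1 on chromosome 13. The longest empty stretch on chromosome 13 was 2027 kb in the best 50% and 2200 kb, the whole window, in the best 25%, which hold fewer peaks; with each library left out in turn it was 241 to 1190 kb, and on chromosome 8 148 to 294 kb. These alternatives for the empty stretches were chosen after seeing the data. Windows that do not overlap gave 3.84% in place of 4.43% and 43.2% in place of 41.9%. Unknown depth limits any statement on unshared peaks.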
